A study of Homo sapiens with 4 samples.

Results

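The D-type cyclins CCND1, CCND2 and CCND3, their partner kinases CDK4 and CDK6, the CDK inhibitors CDKN1A (p21), CDKN1B (p27), CDKN2C (p18) and CDKN2D (p19), and the retinoblastoma gene RB1 were read as 10 rows, matched by symbol, of a count table with 56638 symbols. The cells were MV4;11, an established human acute myeloid leukaemia line, and the table holds 4 libraries. In 2 of them the cells had been given CU-T12-9, a synthetic compound that activates the TLR1/TLR2 heterodimer, at 1 µg/mL for 24 h, and in the other 2 they had received vehicle. The vehicle is DMSO in the sample labels and PBS in the treatment protocol, and is called DMSO here. All 4 libraries come from the same parental line, which carries the KMT2A-AFF1 fusion and the FLT3 internal tandem duplication. The labels do not state whether the 2 libraries of a group are from independent cultures, and the p-values below therefore cover the spread between libraries only, which may be technical.

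In G1 phase, D cyclins bind CDK4 or CDK6 and the complexes phosphorylate the RB protein, which releases E2F transcription factors and lets cells enter S phase. The INK4 proteins (p15, p16, p18 and p19) bind the kinases and keep the cyclin off, while the Cip/Kip proteins (p21, p27 and p57) bind whole cyclin-CDK complexes, block CDK2 and can help D cyclins assemble with CDK4. In myeloid cells, exit from the cycle accompanies terminal differentiation, and CDK6 is the kinase on which KMT2A-rearranged leukaemia cells are known to depend.

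The libraries held 23201117 and 23087102 counted reads under CU-T12-9, against 25867733 and 23892934 under DMSO, and a single read was worth 0.0384 to 0.0442 CPM (read counts scaled to the TMM-adjusted library size). All 10 blast markers checked were detected, with a summed level of 2650 to 2800 CPM under CU-T12-9 and 3000 to 3090 CPM under DMSO. LYZ made up much of these sums, and single markers moved far more: MPO had 0.214 and 0.221 CPM under CU-T12-9, against 5.76 and 6.47 CPM under DMSO, and CD4 had 670 and 744 CPM, against 211 and 209 CPM. CSPG4 had 1.75 and 2.39 CPM under CU-T12-9, against 33.6 and 30.9 CPM under DMSO, and ITGAM had 11.6 and 11.2 CPM, against 2.84 and 2.59 CPM. T-cell and erythroid markers summed to at most 0.0418 CPM in any library, with HBB, HBG1, ALAS2, CD3D, CD3G and CD2 at 0. B-cell, fibroblast and epithelial markers summed to at most 1.64, 1.28 and 6.22 CPM. Their part in the results was not tested.

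The upstream sequences of the genes that moved most are shown first, because the regulators known for these genes act there. The RefSeq promoter table (GRCh38.p14) held 8 of the 10 genes, in 13 windows, and had no entry for CCND1 or CCND2. The single RB1 window belongs to a transcript that starts inside the gene, and the region before the start of the full-length RB1 transcript was not searched. Each line below gives the 250 bases before the annotated start, on the strand of the gene, for the members whose change was larger than 1.5-fold by test and for the inhibitor CDKN2B (p15). Capitals mark CACGTG, the E-box bound by MYC and MAX, and GGGCGG on either strand, the GC box bound by SP1 and KLF factors. The windows are chr12:57752311-57752560 (minus strand) for CDK4, chr6:36678464-36678713 (plus) for CDKN1A, chr19:10568980-10569229 (minus) for CDKN2D and chr9:22009306-22009555 (minus) for CDKN2B.
CDK4: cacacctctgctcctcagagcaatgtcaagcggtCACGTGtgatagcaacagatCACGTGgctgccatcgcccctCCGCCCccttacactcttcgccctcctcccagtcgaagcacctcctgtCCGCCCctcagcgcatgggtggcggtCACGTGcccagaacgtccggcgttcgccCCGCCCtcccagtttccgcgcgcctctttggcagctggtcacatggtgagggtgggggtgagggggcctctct
CDKN1A: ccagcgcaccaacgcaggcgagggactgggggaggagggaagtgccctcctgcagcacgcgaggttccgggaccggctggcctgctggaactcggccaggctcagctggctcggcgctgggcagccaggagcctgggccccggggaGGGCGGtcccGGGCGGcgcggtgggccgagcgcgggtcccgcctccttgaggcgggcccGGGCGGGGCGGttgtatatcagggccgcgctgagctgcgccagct
CDKN2D: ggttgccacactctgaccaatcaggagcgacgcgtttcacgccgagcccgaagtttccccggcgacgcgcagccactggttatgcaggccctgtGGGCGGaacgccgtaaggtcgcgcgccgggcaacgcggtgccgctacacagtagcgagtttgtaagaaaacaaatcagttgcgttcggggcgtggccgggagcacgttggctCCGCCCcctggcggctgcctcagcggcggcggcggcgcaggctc
CDKN2B: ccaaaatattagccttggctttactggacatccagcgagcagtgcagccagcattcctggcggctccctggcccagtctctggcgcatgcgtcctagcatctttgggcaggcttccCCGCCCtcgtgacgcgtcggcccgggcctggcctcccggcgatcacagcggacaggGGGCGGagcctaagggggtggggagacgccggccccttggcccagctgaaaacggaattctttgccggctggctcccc

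The CDK4 window held 3 E-boxes, the first of which began 216 bases before the start. An E-box stood in 6.34% of all 35116 promoter windows of that length in the table, and 3 or more stood in 0.0797%. Of the other members, CDKN2C had an E-box in 2 of its 3 windows, beginning 220 bases before the start in one and 69 bases before it in another. GC boxes were present in windows of 7 of the 8 genes, all but RB1, whether or not the gene moved much. CDKN1A had 4 matches (at 104, 94, 45 and 40 bases, the last 2 overlapping), CDK4 and CDK6 had 3 each, CDKN2D 2 and CDKN1B 1, while CCND3 and CDKN2C had up to 5 in a window. At least 1 stood in 42.6% of all windows. Neither the kB site nor the E2F site, searched as TTTCCCGC, TTTCGCGC, TTTGCCGC and TTTGGCGC on both strands, was found in any window of the members. They stand in 9.96% and 2.79% of all windows. The STAT site, TTCNNNGAA, was found once, in the internal window of RB1, and in 6.57% of all windows. Such matches describe letters in these windows and are not evidence of binding.

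Under CU-T12-9, 8 of the 10 genes (80%) passed the test, 4 being higher and 4 lower. CDKN1A, CDKN1B, CDK6 and RB1 rose, and CDK4, CDKN2D, CDKN2C and CCND3 fell, while CCND1 and CCND2 were not called. All 10 genes had enough reads to be tested. Of the 14018 genes tested in the series 65.2% were called (edgeR quasi-likelihood test, Benjamini-Hochberg adjustment over all genes, threshold 0.05), 32.0% higher and 33.2% lower, so that a call alone does not set these genes apart. Tested against a fold of 1.5, CDK4, CDKN1A and CDKN2D passed, 3 of 10 (30%) against 24.6% of all genes. The median log2 fold change of the 10 was 0.12, against 0.00 for all genes. In 9 of the 10, all but CCND1, the libraries of the 2 groups did not overlap, as in 82.3% of all genes tested.

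**Figure D1:**
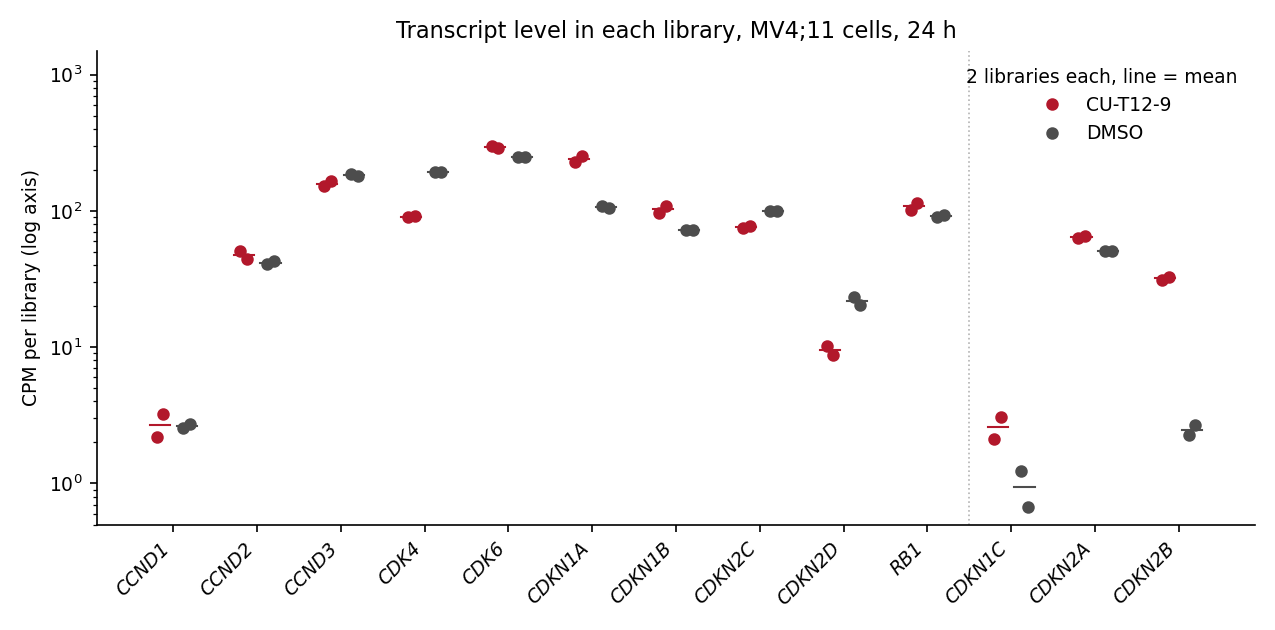
Level of each gene in CPM (log axis) in each library: the 10 genes left of the dotted line and 3 further CDK inhibitors right of it, CU-T12-9 in red and DMSO in grey, points for libraries and lines for the means of 2. CDK4 and CDKN2D lie lower and CDKN1A and CDKN2B higher in both CU-T12-9 libraries, while the CCND1 libraries overlap.

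Among the D cyclins, CCND3 was the most abundant and the only one called. CCND3, the D cyclin used widely by maturing blood cells, had 153 and 165 CPM under CU-T12-9, against 188 and 180.4 CPM under DMSO. Both treated libraries lay below both vehicle libraries, but the fall was small, a log2 fold change of -0.21 (SE 0.06, adjusted p = 0.00858 by edgeR's quasi-likelihood test). It was not called without the first DMSO library (log2 fold change -0.19, adjusted p = 0.0975), was -0.13 without the first CU-T12-9 library, and its adjusted p ranged from 2.34e-09 to 1 over all alternatives.

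CCND2, a direct target of cytokine and STAT signalling in blood cells, had 51.2 and 44.2 CPM under CU-T12-9 and 40.9 and 42.8 CPM under DMSO. The treated libraries were both higher, and the lower of them came close to the DMSO range. The log2 fold change of 0.19 (SE 0.08, 95% interval 0.0087 to 0.37) did not pass after adjustment (adjusted p = 0.0625 by edgeR). It passed with DESeq2 size factors (adjusted p = 0.0441), with upper-quartile factors (0.0412) and without the second CU-T12-9 library (log2 fold change 0.29, adjusted p = 7.93e-06). Without the first CU-T12-9 library the log2 fold change was 0.11 (adjusted p = 0.129), and the adjusted p ranged from 7.93e-06 to 1 over all alternatives.

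CCND1, the D cyclin of many epithelial and lymphoid tumours, was scarce, with 51 and 73 reads (2.18 and 3.23 CPM) under CU-T12-9 against 66 and 65 reads (2.53 and 2.71 CPM) under DMSO. The treated libraries fell on either side of the vehicle libraries. A difference was not detectable at this depth: the log2 fold change was 0.04 (SE 0.23) with a 95% interval of -0.48 to 0.56, which leaves room for folds between 0.717 and 1.48. It shares 497 exon bases with LTO1 on the opposite strand in GENCODE 29 gene models, and whether the counting used strand is not known.

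CCND3 gave most of the D cyclin reads in every library. CCND2 gave 24.8% and 20.8% of the reads of the 3 genes under CU-T12-9, against 17.7% and 18.9% under DMSO, and CCND3 gave 74.1% and 77.7%, against 81.3% and 79.9%. CCND1 gave 1.06% and 1.52%, against 1.09% and 1.2%. The groups did not overlap for CCND2 and CCND3. With 2 libraries against 2, an exact two-sided permutation test cannot go below p = 0.333, so these shares and the ratios below are given without a test. Summed over the 3 genes, the D cyclins had 206 and 213 CPM under CU-T12-9 and 232 and 226 CPM under DMSO.

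The partner kinases went opposite ways. CDK4 had 89.9 and 92.2 CPM under CU-T12-9, against 195 and 193 CPM under DMSO, means of 91.1 ± 1.63 and 194 ± 1.07 CPM (SD, n = 2 in each group). Both treated libraries lay far below the vehicle libraries, with little spread in either group, and the fall was 2.13-fold (log2 fold change -1.09, SE 0.05, edgeR adjusted p = 1.24e-07). Larger changes than this, in either direction, were seen in 18.6% of the genes tested. The call held in all 13 alternatives, with log2 fold changes of -1.11 to -1.04.

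CDK6 had 299.9 and 288 CPM under CU-T12-9, against 248 and 249.9 CPM under DMSO. The treated libraries were both higher, by 1.18-fold (log2 fold change 0.24, SE 0.05, edgeR adjusted p = 0.00189), a rise exceeded in size by 70.5% of the genes tested. The ratio of CDK6 to CDK4 reads was 3.34 and 3.13 under CU-T12-9, against 1.27 and 1.29 under DMSO, and the groups lay well apart. The sum of both kinases was 390 and 381 CPM under CU-T12-9 and 442 and 443 CPM under DMSO.

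The gene models of CDK4 and TSPAN31, a tetraspanin gene on the opposite strand, share 1078 of the 2076 exon bases of CDK4 in GENCODE 29. TSPAN31 had 52.3 and 49.9 CPM under CU-T12-9 and 29.2 and 25.9 CPM under DMSO, and it rose while CDK4 fell (log2 fold change 0.89, SE 0.08, edgeR adjusted p = 7.50e-06). Whether reads of the shared stretch moved between the rows was not tested, and without the strand setting they cannot be told apart.

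Both Cip/Kip genes among the members rose. CDKN1A, which encodes p21, a broad inhibitor of cyclin-CDK complexes, had 230.4 and 252 CPM under CU-T12-9 and 109 and 106 CPM under DMSO. Both treated libraries lay far above both vehicle libraries. The log2 fold change was 1.16 (SE 0.06, 95% interval 1.03 to 1.30, edgeR adjusted p = 2.17e-07) and stayed between 1.10 and 1.26 over 13 alternatives, all called. CDKN1B, which encodes p27, a protein that accumulates in quiescent cells, had 96.9 and 109 CPM under CU-T12-9, against 73.0 and 72.8 CPM under DMSO. The vehicle libraries were nearly equal and both treated ones higher, a rise of 1.41-fold (log2 fold change 0.50, SE 0.07, edgeR adjusted p = 1.42e-04).

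The ratio of CDKN1A to CDKN1B reads was 2.38 and 2.30 under CU-T12-9 and 1.5 and 1.46 under DMSO. The groups did not overlap, so p21 transcripts gained on p27 transcripts although both rose. Together the 2 genes had 327 and 361 CPM under CU-T12-9, against 182 and 179 CPM under DMSO.

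The INK4 genes among the members both fell. CDKN2D, which encodes p19, had 239 and 199 reads (10.2 and 8.80 CPM) under CU-T12-9, against 613 and 489 reads (23.5 and 20.4 CPM) under DMSO. The groups were well apart. Its fall of 2.31-fold was the largest change among the 10 genes (log2 fold change -1.21, SE 0.11, edgeR adjusted p = 1.49e-05), and larger changes were seen in 16% of all genes. CDKN2C, which encodes p18 and is itself known as an E2F target, had 74.8 and 77.9 CPM under CU-T12-9, against 99.6 and 100.3 CPM under DMSO. Both treated libraries were lower, by 1.31-fold (log2 fold change -0.39, SE 0.05, edgeR adjusted p = 1.78e-04). The ratio of CDKN2C to CDKN2D reads was 7.32 and 8.85 under CU-T12-9 and 4.23 and 4.91 under DMSO.

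RB1, the substrate of the D cyclin kinases, changed least among the called genes except CCND3. It had 100.9 and 115 CPM under CU-T12-9 and 91.1 and 93.8 CPM under DMSO. The treated libraries were both higher but lay further apart than the vehicle libraries, with a log2 fold change of 0.22 (SE 0.07, edgeR adjusted p = 0.0172). Without the second CU-T12-9 library it was 0.13 and without the first 0.35. The call was lost without the first DMSO library (0.19, adjusted p = 0.114), with adjusted p from 2.43e-12 to 1 over all alternatives. LPAR6, named after its value was seen, lies within RB1 on the opposite strand and had 2 to 11 reads in any library.

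**Figure D2:**
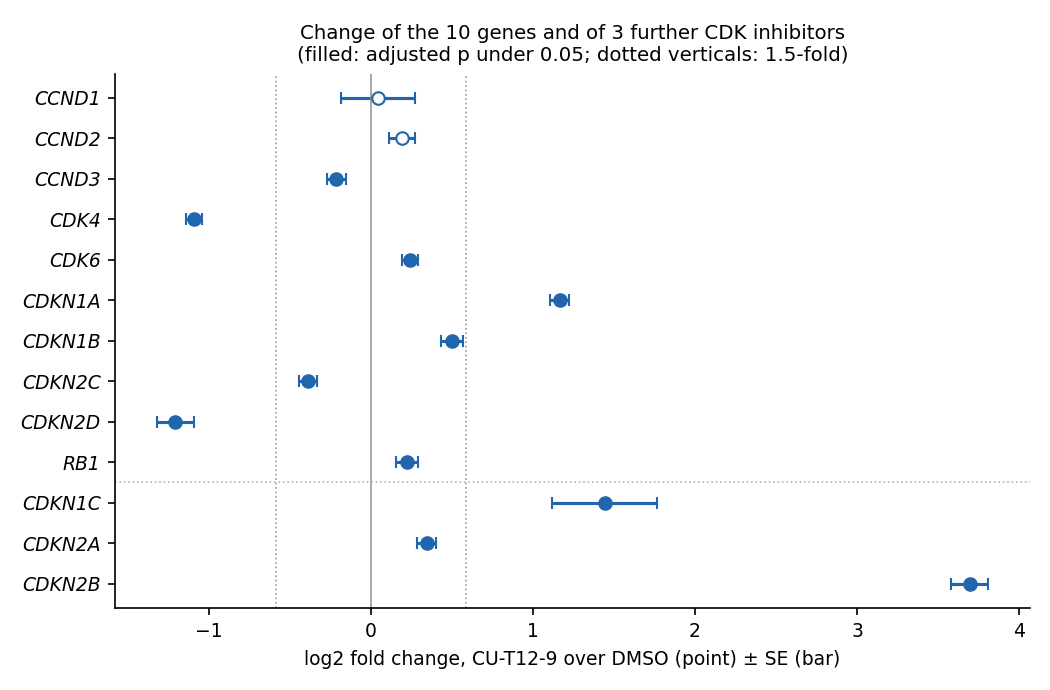
Log2 fold change of CU-T12-9 over DMSO (points) with its standard error (bars) for the 10 genes and, below the dotted line, 3 further CDK inhibitors; filled points were called and dotted verticals mark 1.5-fold. CDK4 and CDKN2D lie beyond 1.5-fold on the lower side, CDKN1A on the higher side, and CDKN2B stands at 3.70.

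**Figure D3:**
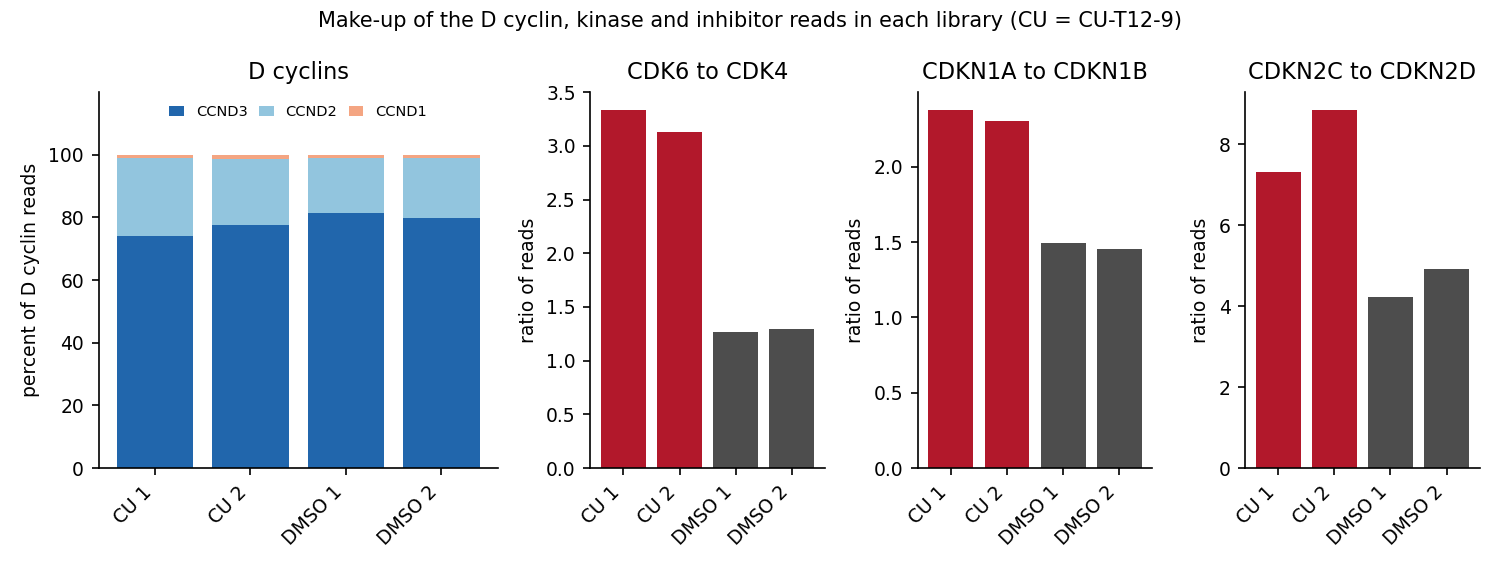
Share of the D cyclin reads from each gene, in percent, and 3 ratios of reads between related genes, for each library (CU 1 and CU 2, then DMSO 1 and DMSO 2). The CDK6 to CDK4 ratio stands at 3.34 and 3.13 in the CU-T12-9 libraries and at 1.27 and 1.29 in the DMSO libraries.

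To set levels of different genes side by side, CPM were divided by the length of all exons of each gene in GENCODE 29, which need not be the annotation used for counting. The exon length was chosen after seeing the data. On this scale, in CPM per kb of exon, CDKN1A led under CU-T12-9 at 96.1 ± 5.96 (SD, n = 2 here and in the values that follow). CDK4 came next at 43.9 ± 0.786, and CCND3 at 40.4 ± 2.19 overlapped with CDKN1B at 38.8 ± 3.29, so the order of the last 2 is not resolved. CDK6 followed at 25.1 ± 0.694, above CDKN2C at 23.0 ± 0.657, which overlapped with RB1 at 21.6 ± 1.99. CCND2, CDKN2D and CCND1 were the lowest, at 7.36 ± 0.772, 6.33 ± 0.671 and 0.614 ± 0.168.

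Under DMSO no neighbours in the order overlapped on the same scale. CDK4 led at 93.5 ± 0.517, ahead of CCND3 at 46.8 ± 1.42 and CDKN1A at 42.9 ± 0.890. The inhibitors CDKN2C and CDKN1B stood at 30.1 ± 0.163 and 27.4 ± 0.0509, above CDK6 at 21.2 ± 0.144 and RB1 at 18.4 ± 0.391. CDKN2D at 14.6 ± 1.46 was above CCND2 at 6.46 ± 0.201, and CCND1 was again the lowest at 0.596 ± 0.0290.

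CDKN1A was the highest of the 10 per exon length under CU-T12-9 and the third under DMSO. It was also the highest under CU-T12-9 per kb of coding length (490 ± 30.4). Other orders depend on the length used: per kb of coding length CDKN2D (44.1 ± 4.42) and CCND2 (48.3 ± 1.5) overlapped under DMSO, their order not being resolved. So does the order of the 2 kinases, because CDK6 has 11729 exon bases and CDK4 2076, while their coding lengths are 978 and 909 bases. Per kb of coding length CDK6 led the 10 genes under DMSO at 254 ± 1.73, with CDK4 at rank 3 (213.5 ± 1.18). The DMSO libraries of CDK4 (214.4 and 212.7) lay between those of CCND3 at rank 4 (215 and 206). The order of CDK4 and CCND3 under DMSO is thus not resolved on this scale. Under CU-T12-9 CDK6 was at rank 2 (301 ± 8.33) and CDK4 at rank 6 (100 ± 1.79). Per exon length the CDK6 to CDK4 ratio was 0.572 ± 0.0261 under CU-T12-9 and 0.227 ± 0.0028 under DMSO, and per coding length 3.0 ± 0.137 and 1.19 ± 0.0147. On each scale the groups were apart, and CCND1 was the lowest of the 10 in both groups on both.

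The remaining INK4 and Cip/Kip genes were listed as context, and all 3 of them rose, as did 32.0% of all genes. CDKN2B, which encodes the INK4 protein p15, had 732 and 738 reads (31.3 and 32.6 CPM) under CU-T12-9, against 59 and 64 reads (2.26 and 2.67 CPM) under DMSO. It rose 12.96-fold (log2 fold change 3.70, SE 0.11, edgeR adjusted p = 1.09e-08), while its relatives CDKN2C and CDKN2D fell. CDKN2A, whose row covers both p16 and ARF, had 63.7 and 65.6 CPM under CU-T12-9 and 50.9 and 51.1 CPM under DMSO, a rise of 1.27-fold (edgeR adjusted p = 5.95e-04).

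Summed over the 4 INK4 genes, the level was 180.0 and 184.9 CPM under CU-T12-9 and 176 and 174.5 CPM under DMSO. Per kb of exon the sum was 57.3 and 58.2 under CU-T12-9, against 62.3 and 60.7 under DMSO, so the direction of the INK4 sum depends on the scale. CDKN1C, which encodes the Cip/Kip protein p57, had 50 and 70 reads under CU-T12-9 and 32 and 16 reads under DMSO, and rose (log2 fold change 1.44, SE 0.32, edgeR adjusted p = 0.00357) at a low level. CDKN3, a CDK-directed phosphatase and not an inhibitor of the INK4 or Cip/Kip kind, had 10.8 and 9.86 CPM under CU-T12-9, against 46.7 and 46.4 CPM under DMSO, a fall of 4.50-fold (edgeR adjusted p = 3.34e-08). The antisense gene CDKN2B-AS1, named after its value was seen, with 59 and 38 reads under CU-T12-9 and 32 and 37 under DMSO, was not called (edgeR adjusted p = 0.0825; 0.00502 without the second CU-T12-9 library, and 0.00502 to 0.632 over the alternatives).

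Downstream of the D cyclin kinases, every listed cyclin, kinase and RB-E2F output gene fell, each with a larger fitted change than that of CDK4. Of the 11 genes for cyclins E, A and B, CDK1, CDK2 and the CDC25 phosphatases, all 11 fell (median log2 fold change -2.06). The largest were in CDK1, the kinase of mitosis (-2.44), in CDC25A, which activates CDK2 (-2.41), and in CCNE2, a cyclin of the step after the D cyclins (-2.31). All 16 genes known as outputs of RB and E2F fell (median -2.00), led by the origin loader CDC6 (-2.72) and the ribonucleotide reductase subunit RRM2 (-2.53). All these falls are read against a background in which 33.2% of all genes were lower.

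Of 12 pocket protein, E2F and DP genes, 9 fell and 1 rose (median -0.97), beside the same 33.2% lower and 32.0% higher of all genes. The largest falls were those of E2F8 (-2.69), E2F2 (-2.56) and E2F1 (-2.36). The gene that rose was RBL2, which encodes the RB relative p130 of quiescent cells, with a log2 fold change of 0.53 (SE 0.06, edgeR adjusted p = 3.16e-05). RBL1, which encodes the relative p107 and is known as an E2F target, fell by 1.58 on the log2 scale (SE 0.06). RB1, RBL1 and RBL2 thus differed in direction, and RBL1 and RBL2 were singled out after their values were seen.

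Genes for the ligases that degrade D cyclins, p21 and p27 fell in 9 of 13 cases and rose in 2 (median -0.40), against 33.2% lower and 32.0% higher of all genes. The largest falls were in DTL, the adaptor that brings p21 to CUL4 ligases (-2.35), in CKS1B, the cofactor with which SKP2 marks p27 for degradation (-2.34), and in CDC20, an activator of the anaphase-promoting complex (-1.92). SKP2 itself, named after its value was seen, also fell (-1.23). The genes that rose, also named after their values were seen, were DDB1, the linker of CUL4 ligases (log2 fold change 1.10), and AMBRA1, the adaptor for D cyclins (0.60). Transcript levels only were measured, and protein levels of p21, p27 or the cyclins are not part of these data.

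Of the CDK-activating kinase genes, WEE1, PKMYT1 and the chaperone CDC37, 5 of 6 fell and none rose (median -0.38; 33.2% of all genes were lower). PKMYT1 (-2.55) and WEE1 (-1.37), which phosphorylate and hold CDK1 and CDK2, fell most, followed by CCNH, the cyclin of CDK7 (-0.43). Of 22 genes for cyclins and CDKs that act mostly outside the cycle, 9 rose and 4 fell (median 0.16). Of all genes, 32.0% were higher and 33.2% lower. CCNG2, an unconventional cyclin of arrested cells, rose by 1.22, CDK18 by 1.02 and the Mediator kinase CDK19 by 0.78 on the log2 scale.

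Among 16 transcription factors known to act on the D cyclin, CDK4 or inhibitor genes, 10 rose and 2 fell (median 0.42), where 32.0% of all genes were higher and 33.2% lower. KLF6, an activator of CDKN1A, rose 3.37-fold, with 30.1 and 30.1 CPM under CU-T12-9 and 9.48 and 8.35 CPM under DMSO. STAT5A rose 2.31-fold. MYC, an activator of CDK4 and repressor of CDKN1A and CDKN2B, had 233 and 234 CPM under CU-T12-9 and 472 and 469.9 CPM under DMSO, a fall of 2.02-fold (edgeR adjusted p = 1.33e-07). KLF4, the other gene that fell, is named after its value was seen and had 26 and 33 reads under CU-T12-9, against 80 and 45 under DMSO (log2 fold change -0.95, edgeR adjusted p = 0.0200). It was not called by DESeq2 (adjusted p = 0.062) or without the first DMSO library (-0.56, adjusted p = 0.245), over a range of 4.45e-04 to 0.245.

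Of 10 genes listed because they overlap, neighbour or lie antisense to a member, 5 could be tested, with 1 higher and 2 lower (median 0.20). Of all genes, 32.0% were higher and 33.2% lower. Beside TSPAN31, BYSL, the neighbour of CCND3, fell by 0.65 and FAF1, the neighbour of CDKN2C, by 0.18 on the log2 scale. The BYSL call was lost against a fold of 1.5 (adjusted p = 0.198 by edgeR). The FAF1 call was lost with DESeq2 (adjusted p = 0.119), without the first or the second DMSO library (0.116 and 0.166) and against a fold of 1.5, its adjusted p ranging from 0.00538 to 1. CCND2-AS1, named after its value was seen, had 1 read in each library. Since the samples are bulk cultures, fewer cells in cycle and less of a transcript in each cell cannot be told apart for any of these genes.

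**Figure D4:**
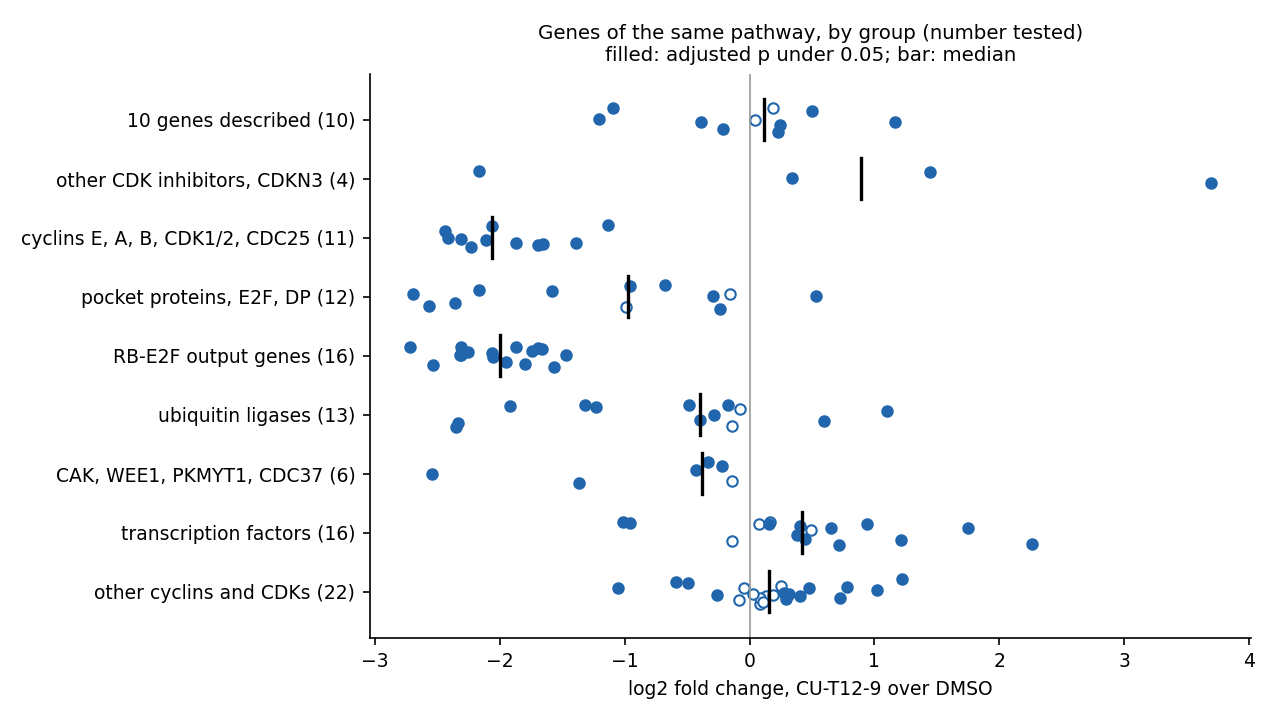
Log2 fold change of CU-T12-9 over DMSO for the 10 genes and for 8 groups of genes of the same pathway, with the number tested in brackets; filled points were called, open points were not, and bars are medians. The 10 genes spread to both sides of 0, with a median of 0.12, while all genes of the 2 groups with medians of -2.06 and -2.00 lie below it.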

How the data were processed

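RNA from 4 MV4;11 libraries was sequenced. The authors deposited whole-number read counts per gene symbol. Per the submitters' processing notes, FastQC 0.11.7, TopHat2, featureCounts 1.5.2 and GRCh37 were used; the sources used here give neither the annotation nor the handling of strand and of multi-mapping reads. The counts were analysed in R 4.3.3 with edgeR 4.0.16 (quasi-likelihood F-test, group as the only term, filterByExpr, TMM, Benjamini-Hochberg adjustment over all 14018 genes tested, threshold 0.05). CPM use TMM-adjusted library sizes, and an SE is the size of the log2 fold change over the root of the F statistic. Normalisation, filter, test (DESeq2 1.42.0, limma-voom 3.58.1), fold threshold, replicate block and left-out libraries were varied. The fit was also run on simulated counts with known changes. Libraries of a pair differed beyond counting noise (chi-square per degree of freedom 6.99 for CU-T12-9 and 2.42 for DMSO), so all 4 were kept. Lengths and overlaps come from GENCODE 29 and promoters from RefSeq, both on GRCh38; the count table holds no coordinates, and none were converted.

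The 10 genes and the 9 pathway lists were chosen with earlier results of these data known. The genes named from a list were all of a list of at most 5, or the 3 largest called changes with a mean of at least 5 CPM, except where the text says otherwise; a few listed genes are not reported by name here.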

Additional observations from a re-analysis of the deposited data

How the results depend on the processing

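Over 13 alternatives each, 118 of 130 log2 fold changes for the 10 genes kept their direction and their side of the threshold, as did 442 of 455 for the pathway genes run through the same alternatives. Tested against a fold of 1.5, 1 member was higher and 2 lower, as were 1761 and 1688 of all genes, and 12 pathway genes were higher and 43 lower. CCND1 changed sign, uncalled, without the second CU-T12-9 library (-0.27) and without the first DMSO library (-0.02). With 1 library of a group left out, the lone one of its group assumed to vary like the others, 3 to 5 members were higher and 3 to 4 lower, and CCND1 ranged from -0.27 to 0.33.

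Ratios depend on the length used, the exon length being an alternative chosen after seeing the data. Per exon length, CCND2 gave 15.3% and CCND3 83.5% of the D cyclin level under CU-T12-9, against 12% and 86.9% under DMSO. Per coding and per exon length, CDK6 to CDK4 was 3.0 and 0.572 under CU-T12-9, against 1.19 and 0.227 under DMSO, and CDKN1A to CDKN1B was 2.92 and 2.48, against 1.84 and 1.56. CDKN2C to CDKN2D per exon length was 3.66, against 2.07.

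Deviations of same-numbered libraries were uncorrelated (0.00795), so no shift shared by a number was seen. A correlation over all genes cannot settle whether the numbers pair the samples, and the labels do not state it. With the replicate block, 4 members were higher and 4 lower, as were 4488 and 4655 of all genes, and 26 and 59 pathway genes. Depth limits rows with few reads, CCND1 and CDKN1C among them.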
